A study of Homo sapiens with 8 samples.

Results

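The DNA damage checkpoint kinases and their mediators were followed as 10 genes, ATM, ATR, ATRIP, CHEK1, CHEK2, CLSPN, TOPBP1, MDC1, TP53BP1 and RAD9A. They were found by gene symbol among 16608 genes with counts in every library, with 1 identifier each, and all 10 passed the filter on low counts. SupB15 is an established human line of pre-B acute lymphoblastic leukemia with the Philadelphia chromosome, the translocation that fuses BCR to ABL1. Its total RNA was sequenced after 4 treatments, with 2 independent samples of each. The combination was 36 h of 1035 (2 µM) and then 10 h of doxorubicin (0.1 µM). The other groups had 46 h of 1035 (2 µM), 10 h of doxorubicin (0.1 µM), or 46 h of the solvent DMSO. The series title calls 1035 an inhibitor of histone deacetylases, the enzymes that take acetyl groups off histones, and doxorubicin, an anthracycline, holds topoisomerase II on the DNA that it has cut. Every group is the same line, so the values describe 1 leukemia line. The labels do not say whether 1035 was still present during the 10 h of doxorubicin. Doxorubicin cells were treated for 10 h and DMSO cells for 46 h, so treatment and duration cannot be told apart in that comparison. The same holds for the combination, with 36 h and then 10 h, against the 10 h of doxorubicin alone. Per the labels 1035 was given for 36 h in the combination and 46 h alone, so its duration also differs between those groups. The interaction, which uses all 4 groups, carries these limits too. Replicates differed least in DMSO, with an SD of 0.14 for their difference in log2 CPM over genes, then in the combination (0.15), after 1035 (0.17) and after doxorubicin (0.18), and values that rest on 1 library are given without it.

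The checkpoint has a pair of apical kinases. ATM, recruited to double-strand breaks by a sensor complex of MRE11, RAD50 and NBN, phosphorylates the kinase CHEK2, while MDC1 and TP53BP1 gather on the marked chromatin around the break. ATR, carried by its partner ATRIP to single-stranded DNA at stalled forks and resected ends, is activated by TOPBP1, which docks on the RAD9A-RAD1-HUS1 clamp, and then phosphorylates the kinase CHEK1 held by the adaptor CLSPN. Both effector kinases act on CDC25 phosphatases, among other targets, and so halt the cell cycle. Control of these kinases acts largely on the proteins, so transcript levels say how much message was present and not how active the checkpoint was.

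Under 1035, 5 of the 6 members of the ATR arm fell and 1 rose, and 0 of the 4 members of the ATM arm fell. This split describes the members only. Among 14 other break sensors and chromatin mediators, given below, 7 fell, with NBN of the ATM sensor among them, and 2 rose. CHEK1 and CLSPN fell to 0.626 and 0.627 of their DMSO level, and TOPBP1, ATRIP and ATR to 0.771, 0.765 and 0.835 of theirs. The clamp subunit RAD9A was higher. In the ATM arm TP53BP1 and MDC1 were higher, and ATM and CHEK2 did not pass the test. No member passed it for doxorubicin, with or without 1035 beforehand. Few genes did so at all, 1.33% of those tested in doxorubicin against DMSO and 0.496% in the combination against 1035. With so few genes passing, the lack among members does not set them apart from other genes. In 1035 against DMSO 24.8% of all genes tested passed as lower and 24.2% as higher.

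Promoters are shown for the members at the ends of this range, from RefSeq on GRCh38.p14, each window running from 250 bases before to 50 after a start site, on the strand of the gene. CHEK1 and CLSPN had the lowest log2 fold changes under 1035, RAD9A the highest, and CHEK2 lay close to 0. Capitals mark CCAAT, the box bound by NF-Y, read on the other strand as ATTGG, and in CLSPN also TTTCCCGC, an E2F motif that reads GCGGGAAA here. The lines give CHEK1 at chr11:125626106-125626405 on the plus strand, CLSPN at chr1:35769929-35770228 on the minus strand, CHEK2 at chr22:28741771-28742070 on the minus strand and RAD9A at chr11:67391736-67392035 on the plus strand.
CHEK1: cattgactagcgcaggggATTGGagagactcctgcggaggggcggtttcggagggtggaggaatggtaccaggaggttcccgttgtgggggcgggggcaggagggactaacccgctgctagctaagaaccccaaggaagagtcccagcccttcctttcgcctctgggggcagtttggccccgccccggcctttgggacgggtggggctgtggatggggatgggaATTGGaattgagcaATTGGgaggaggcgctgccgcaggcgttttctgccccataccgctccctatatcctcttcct
CLSPN: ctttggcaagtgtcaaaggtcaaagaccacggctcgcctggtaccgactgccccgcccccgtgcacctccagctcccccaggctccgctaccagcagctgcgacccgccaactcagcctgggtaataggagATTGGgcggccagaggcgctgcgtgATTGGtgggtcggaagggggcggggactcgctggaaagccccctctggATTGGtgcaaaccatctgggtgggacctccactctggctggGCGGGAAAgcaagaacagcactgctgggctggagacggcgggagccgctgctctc
CHEK2: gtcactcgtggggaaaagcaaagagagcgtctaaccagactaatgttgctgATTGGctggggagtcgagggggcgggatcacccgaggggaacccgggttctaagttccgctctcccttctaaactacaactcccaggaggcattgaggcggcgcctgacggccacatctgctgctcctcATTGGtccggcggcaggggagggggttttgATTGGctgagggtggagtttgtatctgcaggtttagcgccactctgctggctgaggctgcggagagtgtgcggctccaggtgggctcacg
RAD9A: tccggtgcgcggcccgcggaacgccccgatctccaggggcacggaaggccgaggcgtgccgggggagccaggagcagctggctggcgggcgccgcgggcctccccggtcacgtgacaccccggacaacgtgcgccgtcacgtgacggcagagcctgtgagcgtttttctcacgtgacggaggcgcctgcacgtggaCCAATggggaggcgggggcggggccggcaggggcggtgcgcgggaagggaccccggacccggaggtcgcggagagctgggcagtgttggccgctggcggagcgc

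All 10 members had at least 1 window in the RefSeq table, 14 windows in all, and each was searched on both strands. The 4 E2F motifs searched were TTTCCCGC, held by 1.63% of 35116 windows of this length, then TTTGGCGC with 0.652%, then TTTGGCGG with 0.652%, and then TTTCCCGG with 1.48%. Any of them was present in 4.31% of windows. Among members they were found in CLSPN, with a match that starts 5 bases before the start site, and in ATR, with TTTCCCGG starting 211 bases before it. CCAAT was in 34.6% of all windows, and the printed CHEK1, CLSPN and CHEK2 windows held 3 matches each, while that of RAD9A held 1. TTTGAA, the cell cycle homology region of many G2/M genes, was in 15.2% of windows and among members in ATM and MDC1. No match to any of these letters was found in the TOPBP1 window. Other forms of the E2F motif were not searched, so this does not show that the window lacks an E2F site. The other CHEK1 windows held 1 CCAAT match each, so the number for CHEK1 depends on the start site used. A match is not shown to be a bound site, and the motifs' part in the levels was not tested.

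Transcript levels below are in CPM, the reads of a gene scaled to the size of its library after TMM normalization, and tests are the quasi-likelihood F-test of edgeR over all genes, with an adjusted p under 0.05 as the threshold for a call. In 1035 against DMSO 3 members were higher and 5 lower, where 49.0% of all genes tested were called, 24.2% as higher and 24.8% as lower. The median log2 fold change was -0.14 over the members and 0.01 over all genes tested. In the combination against doxorubicin, which shares no library with that comparison, 2 members were higher and 4 lower, where 43.8% of genes were called, 21.8% as higher and 22.0% as lower. Among these the median was -0.06 over the members and 0.00 over all genes. For the combination against DMSO 3 were higher and 5 lower, against 49.2% of genes called, 24.5% higher and 24.7% lower. Its log2 fold changes were -0.68 for CLSPN, -0.65 for CHEK1, -0.37 for ATRIP, -0.36 for TOPBP1 and -0.22 for ATR among the lower genes, and 0.57 for RAD9A, 0.39 for TP53BP1 and 0.37 for MDC1 among the higher ones. The authors' deposited tables had 8 members with an adjusted p under 0.05 in 1035 against DMSO and 5 in the combination against doxorubicin. The share of all genes under 0.05 was not counted in any of the deposited tables, and the percentages given here are those of edgeR. Reads per member and library numbered between 282 (RAD9A) and 11898 (ATM). In bulk RNA a smaller share of cells in S or G2 phase and less message per cell cannot be told apart.

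Of the effector kinases, CHEK1 changed and CHEK2 did not pass the test. CHEK1 had 114 and 115 CPM after 1035 then doxorubicin, 110 and 115 CPM after 1035, 166 and 166 CPM after doxorubicin and 181 and 178 CPM in DMSO. The 4 libraries given 1035 all lay below the other 4, and the nearest values of the sides were 115 and 166 CPM. Its log2 fold change was -0.68 ± 0.06 (SE) in 1035 against DMSO, with an edgeR adjusted p of 1.9e-12, and -0.54 ± 0.06 in the combination against doxorubicin, with an edgeR adjusted p of 9.7e-10. CHEK2, the effector of ATM, had 46.4 and 52.3 CPM in the combination, 50.2 and 50.1 CPM after 1035, 51.0 and 47.7 CPM after doxorubicin and 52.3 and 50.1 CPM in DMSO. These libraries overlapped across all 4 treatments. The log2 fold change of CHEK2 in 1035 against DMSO was -0.03, with a 95% interval of -0.19 to 0.13, and in the combination against doxorubicin -0.01, with an interval of -0.17 to 0.16. Changes of CHEK2 as large as those of CHEK1 lay outside both intervals.

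CLSPN, which holds CHEK1 for phosphorylation by ATR, ran close to CHEK1. It had 73.4 and 71.5 CPM in the combination, 71.1 and 74.7 CPM after 1035, 107 and 105 CPM after doxorubicin and 116 and 116 CPM in DMSO. All 4 libraries with 1035 were again below all 4 without it. The log2 fold change was -0.67 ± 0.06 in 1035 against DMSO, with an edgeR adjusted p of 1.0e-11, and -0.55 ± 0.06 in the combination against doxorubicin, with an edgeR adjusted p of 2.7e-09.

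TOPBP1, the activator of ATR, had 228 and 229 CPM in the combination, 227 and 226 CPM after 1035, 277 and 266 CPM after doxorubicin and 301 and 286 CPM in DMSO. The sides did not overlap, and the 4 values with 1035 lay within a few CPM of each other. Its log2 fold change was -0.37 ± 0.06 in 1035 against DMSO (edgeR adjusted p = 7.0e-07) and -0.25 ± 0.06 in the combination against doxorubicin (edgeR adjusted p = 4.7e-04).

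RAD9A, the subunit of the clamp whose tail binds TOPBP1, moved the other way. It had 35.2 and 38.7 CPM in the combination, 34.3 and 36.7 CPM after 1035, 24.8 and 22.8 CPM after doxorubicin and 24.9 and 24.8 CPM in DMSO. Every library with 1035 was above every library without it. The fold was 1.43 in 1035 against DMSO, a log2 fold change of 0.51 ± 0.09 with an edgeR adjusted p of 7.4e-06, and 1.54 in the combination against doxorubicin, a log2 fold change of 0.63 ± 0.09 with an edgeR adjusted p of 2.7e-07. Its clamp partners, named from the pathway list below, were lower under 1035, at -0.43 ± 0.07 for RAD1 and -0.66 ± 0.11 for HUS1 (log2, edgeR adjusted p = 6.0e-06 and 4.2e-06). RAD1 was named after its values were seen.

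The apical kinases differed. ATR had 188 and 190 CPM in the combination, 190 and 177 CPM after 1035, 215 and 197 CPM after doxorubicin and 220 and 220 CPM in DMSO. The sides did not overlap, but the lowest doxorubicin library and the highest library with 1035 lay close together. The log2 fold change of ATR was -0.26 ± 0.06 in 1035 against DMSO (edgeR adjusted p = 3.7e-04) and -0.12 ± 0.06 in the combination against doxorubicin, which did not pass (edgeR adjusted p = 0.0942). Without doxorubicin replicate 2 the value with doxorubicin was -0.18 with an edgeR adjusted p of 0.0178, and without that library and 1035 replicate 2 it was -0.18 with an edgeR adjusted p of 0.00308. ATRIP, the partner that brings ATR to DNA coated with the protein RPA, had 29.8 and 27.8 CPM in the combination, 27.4 and 29.5 CPM after 1035, 37.1 and 34.3 CPM after doxorubicin and 37.9 and 36.4 CPM in DMSO, with no overlap between the sides. Its log2 fold change was -0.39 ± 0.09 in 1035 against DMSO (edgeR adjusted p = 3.2e-04) and -0.31 ± 0.09 in the combination against doxorubicin (edgeR adjusted p = 0.00374). The second call was lost without combination replicate 2 (-0.26, edgeR adjusted p = 0.0633) and without doxorubicin replicate 1 (-0.25, edgeR adjusted p = 0.0531). It also did not pass in the authors' deposited table, with an adjusted p of 0.0915.

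ATM had 653 and 674 CPM in the combination, 727 and 615 CPM after 1035, 666 and 618 CPM after doxorubicin and 652 and 686 CPM in DMSO. The 2 libraries of 1035 were farther apart than any group means. The log2 fold change in 1035 against DMSO was below 0.01 in size, with a 95% interval of -0.13 to 0.13 and an edgeR adjusted p of 0.961. With doxorubicin in both groups it was 0.05 with an edgeR adjusted p of 0.591.

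Of the chromatin mediators of the ATM arm, TP53BP1, which binds histone marks at breaks and shields the ends from resection, had 167 and 165 CPM in the combination, 170 and 170 CPM after 1035, 123 and 123 CPM after doxorubicin and 127 and 127 CPM in DMSO. All libraries with 1035 were above all others, and replicates differed little. Its log2 fold change was 0.42 ± 0.06 in 1035 against DMSO (edgeR adjusted p = 1.1e-07) and 0.43 ± 0.06 in the combination against doxorubicin (edgeR adjusted p = 9.1e-08). MDC1, which reads phosphorylated H2AX and recruits further factors, had 91.9 and 101 CPM in the combination, 91.5 and 87.9 CPM after 1035, 78.9 and 101 CPM after doxorubicin and 72.9 and 76.9 CPM in DMSO. Both DMSO libraries were the lowest, while the doxorubicin libraries spanned most of the range. The log2 fold change of MDC1 was 0.26 ± 0.09 in 1035 against DMSO (edgeR adjusted p = 0.0263). This call was lost without 1035 replicate 1 (0.23, edgeR adjusted p = 0.154), without 1035 replicate 2 (0.29, edgeR adjusted p = 0.0655) and without DMSO replicate 1 (0.23, edgeR adjusted p = 0.148). Against doxorubicin MDC1 in the combination did not pass, with 0.11 ± 0.09 (edgeR adjusted p = 0.354). That value was 0.30 without doxorubicin replicate 2 (edgeR adjusted p = 6.5e-04), 0.29 without that library and 1035 replicate 2 (edgeR adjusted p = 1.4e-04) and -0.06 without doxorubicin replicate 1. Against DMSO it was 0.37 ± 0.09 (edgeR adjusted p = 0.00309), and without combination replicate 2 it was 0.30 (edgeR adjusted p = 0.0565).

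**Figure D1:**
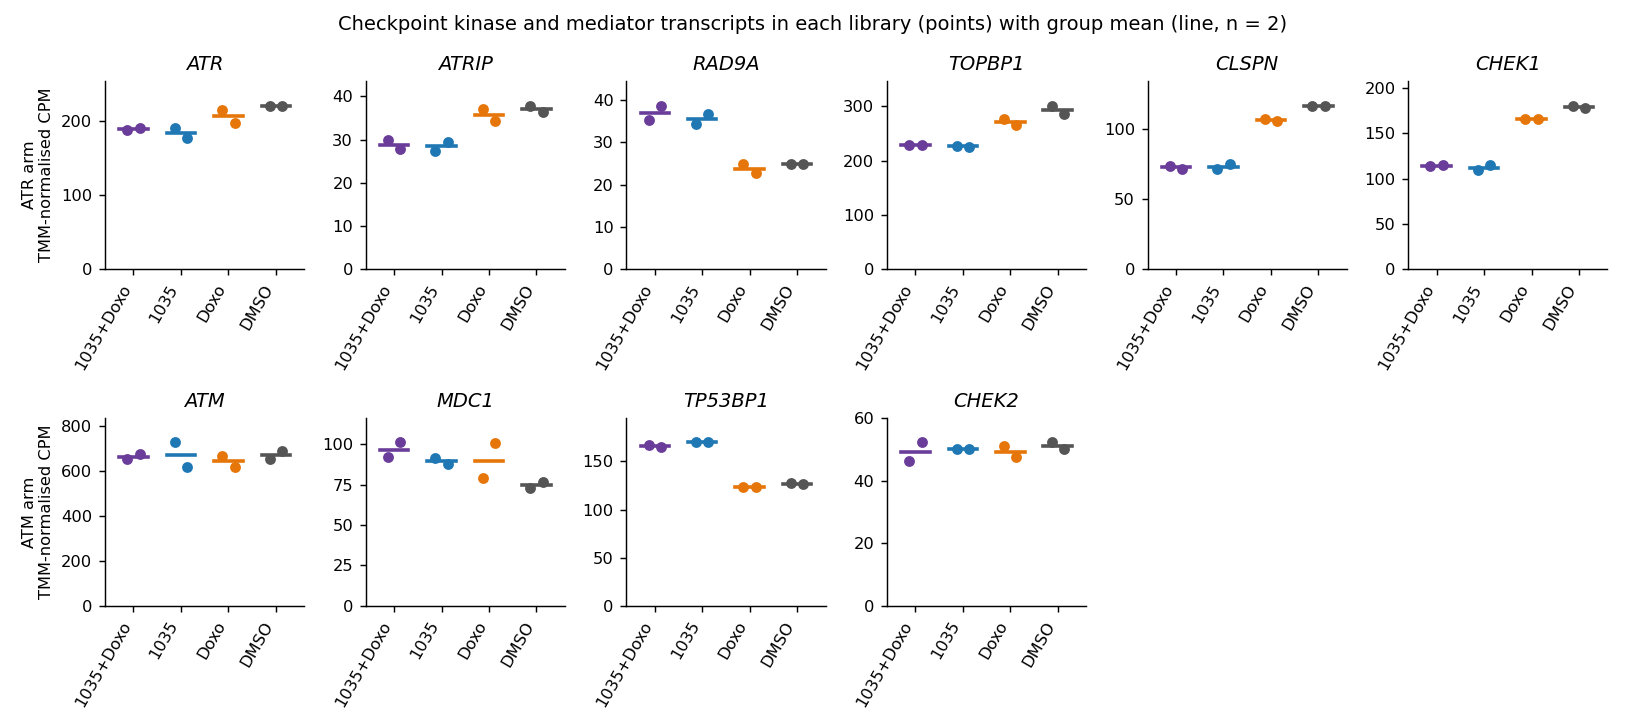
CPM of the 10 genes (vertical axis from 0, each panel on its own scale) in each library, as points, with the group mean as a line, for 1035 then doxorubicin, 1035, doxorubicin and DMSO. In CHEK1 the 4 libraries with 1035 lie at 110 to 115 CPM and the other 4 at 166 to 181 CPM, while the CHEK2 libraries of all groups overlap.

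Over all 8 libraries, the 4 with 1035 did not overlap with the 4 without it for 2 higher members, TP53BP1 and RAD9A, and 5 lower ones, CHEK1, CLSPN, TOPBP1, ATRIP and ATR. Such separation held for 49.2% of all genes tested, 24.5% as higher and 24.7% as lower. ATM, CHEK2 and MDC1 overlapped. The effects of 1035 without and with doxorubicin had the same sign in 10 of 10 members, with ATM and CHEK2 called in neither comparison. Pearson's r between the effects was 0.981 across these 10 genes, which share libraries within each comparison and are not independent replicates. Neither value was computed over all genes, so they are not shown to be particular to the members.

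Set by arm, 5 of the 6 ATR-arm genes (ATR, ATRIP, RAD9A, TOPBP1, CLSPN and CHEK1) were lower in 1035 against DMSO and 1 higher, with a median log2 fold change of -0.38. Of the 4 ATM-arm genes (ATM, MDC1, TP53BP1 and CHEK2) 2 were higher and 2 not called, with a median of 0.13. Among all genes tested, 24.8% were called lower and 24.2% higher in this comparison. When both groups had doxorubicin 4 ATR-arm genes were lower, 1 was higher and ATR was not called, with a median of -0.28. In the ATM arm 1 was higher and 3 were not called, with a median of 0.08. Among all genes tested, 22.0% were called lower and 21.8% higher there. The ratio of CHEK1 to CHEK2 CPM was 2.45 and 2.21 in the combination, 2.18 and 2.29 after 1035, 3.26 and 3.48 after doxorubicin and 3.45 and 3.55 in DMSO. The highest ratio with 1035 was thus below the lowest without it. That of ATR to ATM was 0.288 and 0.282 in the combination, 0.262 and 0.288 after 1035, 0.322 and 0.319 after doxorubicin and 0.337 and 0.321 in DMSO, again without overlap. The mean log2 CPM of the ATR arm minus that of the ATM arm averaged -0.83 ± 0.06 in the combination, -0.85 ± 0.08 after 1035, -0.49 ± 0.08 after doxorubicin and -0.37 ± 0.03 in DMSO (SD, n = 2 each). These ratios describe the arms and were not tested, since the members were chosen with results known.

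**Figure D2:**
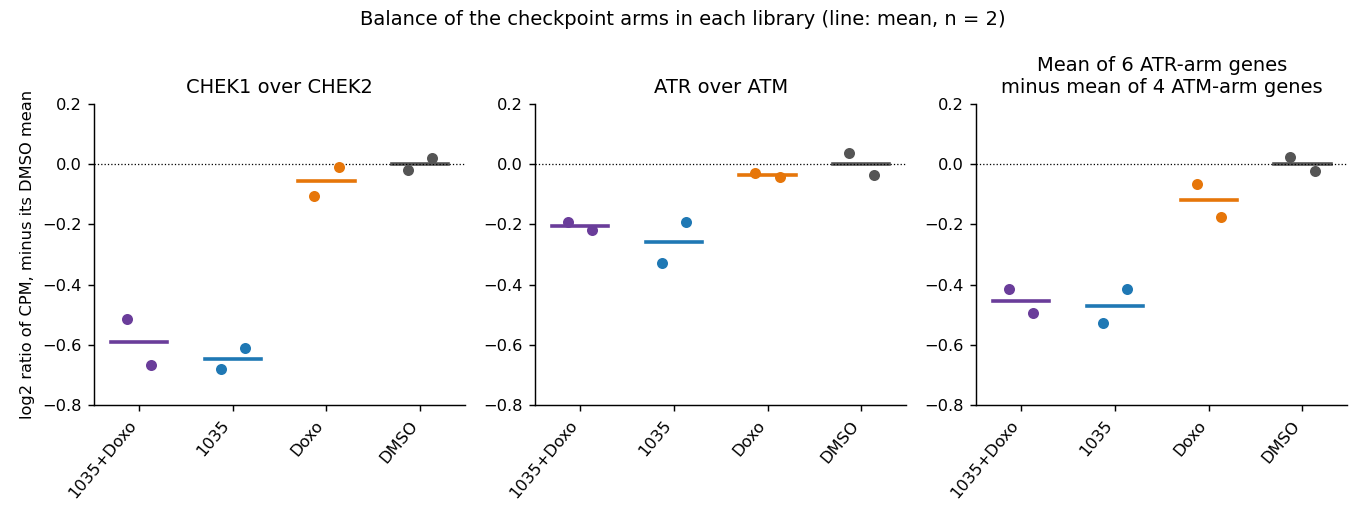
Log2 ratio of CPM in each library relative to the mean of the DMSO libraries (vertical axis), as points with group means as lines, for CHEK1 over CHEK2, ATR over ATM, and the mean of the ATR arm minus that of the ATM arm. The libraries with 1035 lie below those without it in all 3 panels, with CHEK1 over CHEK2 at 2.18 to 2.45 against 3.26 to 3.55 on the linear scale.

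The order of the genes by level per length also differed between treatments. Within a group this order depends on the lengths used, which were 22348 bp for ATM, 6524 bp for TOPBP1 and 6559 bp for CHEK1. Before division by length, mean CPM in DMSO was 669 for ATM, 294 for TOPBP1 and 179 for CHEK1. Per kilobase of the length that the deposited values imply, TOPBP1 was the most abundant and ATM the second in every group, at 35.1 and 29.7 CPM per kb in the combination, 34.7 and 30.0 after 1035, 41.6 and 28.7 after doxorubicin and 45.0 and 29.9 in DMSO. In DMSO they were followed by CHEK1 (27.3 CPM per kb), CLSPN (21.4), ATR (17.6), TP53BP1 (14.3), CHEK2 (12.3), ATRIP (10.9), MDC1 (9.27) and RAD9A (7.81), and no neighbours overlapped between libraries. Doxorubicin cells kept this order down to CHEK2 (11.9 CPM per kb), with MDC1 (11.1) overlapping both CHEK2 above it and ATRIP (10.4) below it, and RAD9A (7.48) last. After 1035, TP53BP1 came next after ATM at 19.2 CPM per kb, above CHEK1 (17.1), ATR (14.7) and CLSPN (13.5), and ATRIP was last at 8.32. RAD9A (11.2) and MDC1 (11.1) overlapped there. In the combination TP53BP1 (18.8) was again above CHEK1 (17.5), and MDC1 (12.0), CHEK2 (11.9) and RAD9A (11.6) overlapped.

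Doxorubicin moved none of the 10 genes past the threshold. In doxorubicin against DMSO 0 members were called by edgeR, where 1.33% of genes were, 0.784% as higher and 0.545% as lower, and the authors' deposited table also had 0 members with an adjusted p under 0.05. At an unadjusted edgeR p under 0.05 there were 2 members, MDC1 and CLSPN, and 2169 of the 16320 genes tested. CLSPN had a log2 fold change of -0.13 with a 95% interval of -0.26 to -0.01 (edgeR adjusted p = 0.323), CHEK1 of -0.11 with an interval of -0.23 to 0.0045, and TOPBP1 of -0.11 (edgeR adjusted p = 0.387). MDC1 had 0.25 ± 0.09 with an interval of 0.06 to 0.45 (edgeR adjusted p = 0.223). Its value rested on the doxorubicin library used, with 0.43 (edgeR adjusted p = 3.9e-05) without doxorubicin replicate 1 and 0.07 (edgeR adjusted p = 0.919) without doxorubicin replicate 2. The doxorubicin libraries did not overlap with the DMSO libraries for 1 higher member (MDC1) and 6 lower ones, where 44.7% of all genes separated in the same way, 20.7% as higher and 24.0% as lower.

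After 1035 the addition of doxorubicin also left 0 members called by edgeR, where 0.496% of genes were, 0.349% as higher and 0.147% as lower. At an unadjusted edgeR p under 0.05 there were 0 members and 1110 of the 16320 genes tested. The authors' deposited table had 0 members under 0.05 in this comparison as well. The log2 fold changes were at most 0.10 in size, and the 95% intervals of the members ran from -0.19 to 0.30 in all. In this comparison 2 members were higher and 1 lower without overlap, where 35.3% of genes separated, 17.5% as higher and 17.8% as lower. A damage-induced gene outside the members did change with doxorubicin. CDKN1A, which codes for p21, an inhibitor of cyclin-dependent kinases, had 355 and 352 CPM in the combination, 228 and 237 CPM after 1035, 289 and 273 CPM after doxorubicin and 193 and 186 CPM in DMSO. It was higher by 0.57 ± 0.06 in doxorubicin against DMSO (edgeR adjusted p = 1.7e-08) and by 0.60 ± 0.06 in the combination against 1035 (edgeR adjusted p = 1.4e-09), on the log2 scale.

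The interaction is the log2 effect of 1035 in doxorubicin-treated cells less its effect in cells without doxorubicin. It was called by edgeR for 0 members, where 0.0184% of genes were called. At an unadjusted edgeR p under 0.05 there were 0 members and 786 of the 16320 genes tested. CHEK1 had the largest positive value, 0.14 on the log2 scale with a 95% interval of -0.03 to 0.31 (edgeR adjusted p = 0.952), followed by ATR (0.14), TOPBP1 (0.13) and CLSPN (0.13). MDC1 had -0.15 with an interval of -0.42 to 0.12. The 95% interval of each of the 10 members included 0, and its width differed by gene, with -0.16 to 0.18 for TP53BP1.

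**Figure D3:**
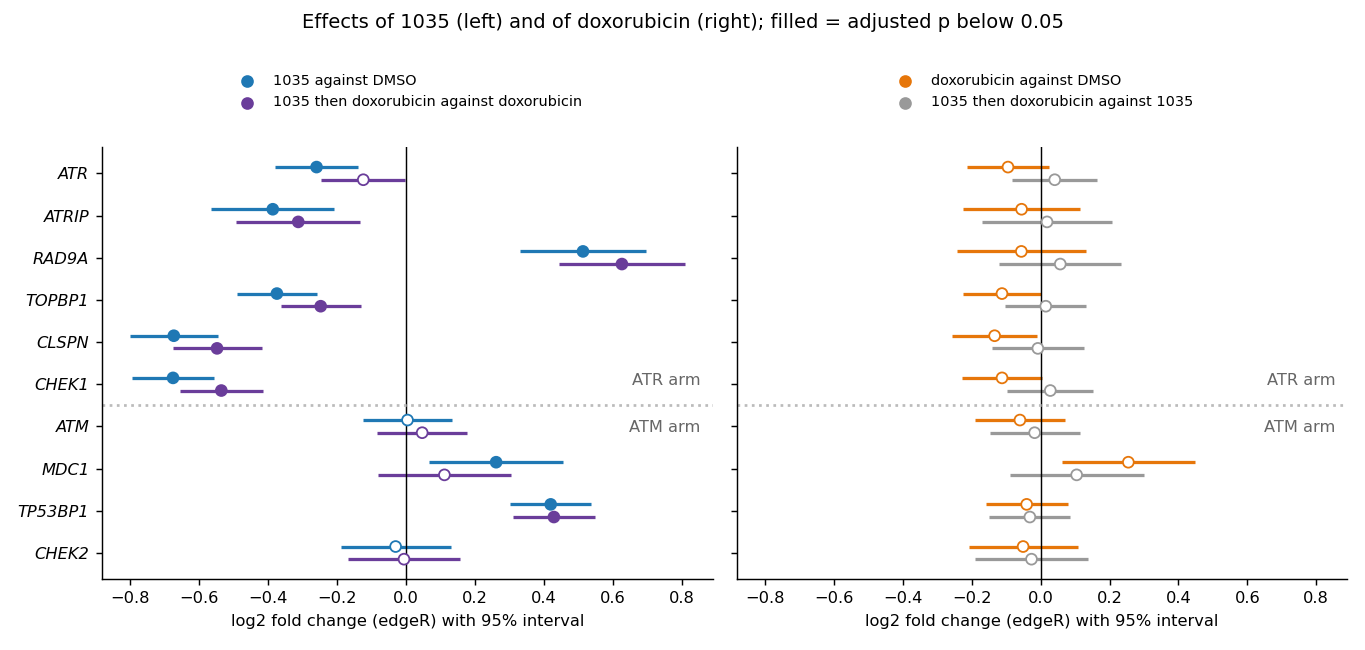
Log2 fold change from edgeR (horizontal axis) with its 95% interval for each gene, for the effect of 1035 on the left (blue, 1035 against DMSO, and purple, the combination against doxorubicin) and of doxorubicin on the right (orange, doxorubicin against DMSO, and grey, the combination against 1035). Filled points have an adjusted p under 0.05, with 8 and 6 on the left and 0 on the right.

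Other genes of the pathway were described by lists chosen for their roles. Of all genes tested, 24.8% were called lower and 24.2% higher in 1035 against DMSO. Of 15 clamp, loader and replication fork mediators, 7 fell and 1 rose in 1035 against DMSO (median log2 fold change -0.08). The fallers included HUS1 of the clamp (-0.66 ± 0.11, edgeR adjusted p = 4.2e-06) and the fork protection pair TIMELESS (-0.65 ± 0.06) and TIPIN (-0.58 ± 0.09), and the loader subunit RFC2 rose (0.31 ± 0.06). Of 14 break sensors and chromatin mediators, 7 fell and 2 rose (median -0.17). NBN, the subunit that binds ATM, fell most, by 1.08 on the log2 scale (SE 0.06, edgeR adjusted p = 1.3e-17), with 151 and 146 CPM in the combination, 149 and 152 CPM after 1035, 310 and 275 CPM after doxorubicin and 306 and 327 CPM in DMSO. The acetyltransferase KAT5, which acetylates ATM, had -0.75 ± 0.08 and BRCA1 -0.50 ± 0.06, while RAD50 (0.31 ± 0.09) and FAM175A (0.26 ± 0.09), a BRCA1 complex scaffold, rose. NBN and KAT5, which act on ATM, were thus lower while ATM itself was not called.

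Downstream, 8 of 10 checkpoint targets at the G2/M switch fell in 1035 against DMSO and 0 rose (median -0.45), among them CDC25A (-0.72 ± 0.06), the phosphatase that CHEK1 marks for destruction, CCNB2 (-0.63 ± 0.06) and CCNB1 (-0.58 ± 0.07). Among single genes that end or carry out the checkpoint, the phosphatase PPM1D (-0.47 ± 0.08) and the ubiquitin ligase MDM2 (-0.30 ± 0.06) fell, and the kinase HIPK2 (0.72 ± 0.08) and CDKN1A (0.29 ± 0.06) rose. The G1/S and replication list held 16 genes that fell and 0 that rose of 18 (median -0.50), led by CCNE2 (-1.07 ± 0.07), RRM2 (-0.87 ± 0.06) and TYMS (-0.80 ± 0.09). Its summed level was 3752 and 3718 CPM in the combination, 3757 and 3923 CPM after 1035, 4954 and 4867 CPM after doxorubicin and 5508 and 5341 CPM in DMSO, so it was lower in the libraries in which CHEK1, CLSPN and TOPBP1 were lower. Its part in their levels was not tested.

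In the combination against doxorubicin the clamp and fork list gave 6 lower and 2 higher, and the break sensors 8 lower and 1 higher. The G2/M targets gave 9 lower and 0 higher, and the G1/S genes 14 lower and 0 higher. Of all genes tested, 22.0% were called lower and 21.8% higher there. Doxorubicin against DMSO raised CDKN1A, HIPK2 (0.36 ± 0.08, edgeR adjusted p = 0.0141) and MDM2 (0.22 ± 0.06, edgeR adjusted p = 0.0389). It lowered H2AFX (-0.26 ± 0.06, edgeR adjusted p = 0.0292), the histone that MDC1 reads once phosphorylated, and the replication genes CCNE2 (-0.28 ± 0.06, edgeR adjusted p = 0.0109), MCM2 (-0.23 ± 0.06, edgeR adjusted p = 0.0337) and GINS2 (-0.26 ± 0.07, edgeR adjusted p = 0.0477). In the combination against 1035 0 genes of the clamp and fork, break sensor, G2/M and G1/S lists were called by edgeR. Of all genes tested, 0.496% were called there. CDKN1A, which is outside these 4 lists, was called in that comparison, as given above.

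**Figure D4:**
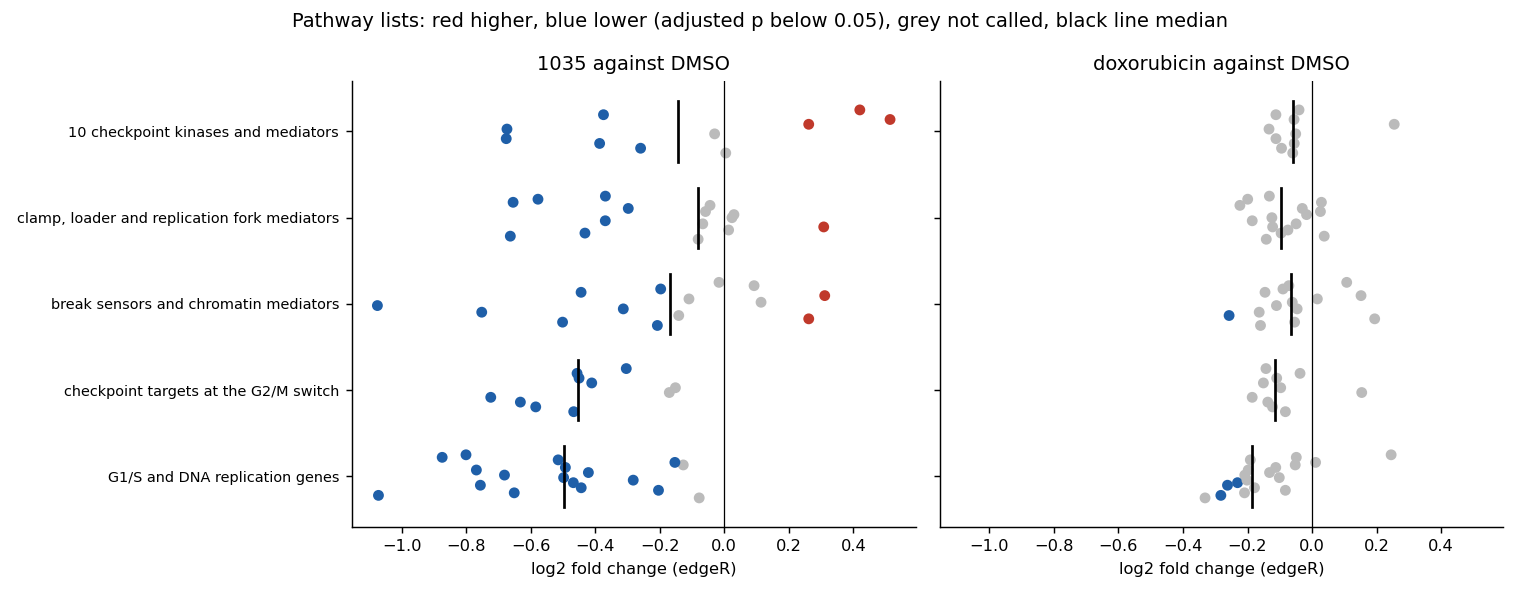
Log2 fold change from edgeR (horizontal axis) of each gene of the 10 members and of 4 pathway lists, for 1035 against DMSO on the left and doxorubicin against DMSO on the right, with the list median as a black line. In 1035 against DMSO the G2/M targets and the G1/S genes have 0 red points, while in doxorubicin against DMSO the G1/S genes have 3 blue points and the G2/M targets have 0.

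Likeness was measured as the root mean square distance between log2 CPM of 2 genes, each centred on its mean over the 8 libraries, among 12067 genes with a mean count of at least 50. Nearest to CHEK1 were PSMB5, a catalytic subunit of the proteasome (0.021), CLSPN (0.023) and EIF5, a translation initiation factor (0.032), against a median of 0.311 over all genes. Their log2 fold changes in 1035 against DMSO were -0.71 ± 0.07 for PSMB5 and -0.64 ± 0.06 for EIF5. Nearest to CHEK2 were the chloride transporter gene CLCN4 (0.023), ZNF576 (0.023) and CTD-3214H19.4 (0.026), against a median of 0.166, and their log2 fold changes in 1035 against DMSO were 0.00, -0.02 and -0.07.

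The sources used here give neither the read counter nor its strand setting, so reads of overlapping genes may be shared. By the annotation of GENCODE, 6 of the 10 members overlap a coding gene with counts. CHEK1 shares a strand with STT3A, which had -0.13 ± 0.06 in 1035 against DMSO (edgeR adjusted p = 0.0655), and ATRIP with TREX1, which had -0.63 ± 0.11 (edgeR adjusted p = 6.2e-06). RAD9A lies opposite POLD4, which had 0.81 ± 0.10 (edgeR adjusted p = 4.8e-09), and opposite PPP1CA, which had -0.22 ± 0.06 (edgeR adjusted p = 0.00128). It also lies opposite CLCF1, with 124 reads over the 8 libraries, and AP003419.1, with 2516. The change of AP003419.1 was not looked up, so the neighbours of RAD9A are covered in part. TP53BP1 lies opposite TUBGCP4 (-0.33 ± 0.09, edgeR adjusted p = 0.00271), ATM opposite NPAT (0.25 ± 0.06, edgeR adjusted p = 7.2e-04) and CHEK2 opposite HSCB (-0.32 ± 0.15, edgeR adjusted p = 0.0874). RAD9A thus moved in the direction of POLD4, and ATRIP in that of TREX1, and the neighbours' part in these levels was not tested. CHEK2 also has 4 pseudogene copies in that annotation, so its counts are uncertain by what the counting did with shared reads.

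Depth ranged between 11760542 and 18144670 counted reads per library. All 12 B-lineage markers had counts, at 899 reads or more in every library, and their summed level was 3165 to 3356 CPM in libraries with 1035 and 4216 to 4527 CPM in those without, with 3 higher and 7 lower in 1035 against DMSO. Of the 8 T and NK cell markers only NKG7 was in the joined table, at 9.64 to 11.8 CPM. Of 8 myeloid markers 4 were in it, summing to 32.2 to 38.2 CPM with 1035 and 20.7 to 23.8 CPM without, and of 7 stromal markers 3, summing to 64.7 to 72.6 CPM with 1035 and 25.8 to 31.1 CPM without. None of 6 erythroid and megakaryocyte markers was in it. Their part in the members' levels was not tested.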

How the data were processed

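Total RNA of SupB15 cells was sequenced in 8 libraries, 2 for each of 4 treatments. Per the labels, RNA was depleted of ribosomal RNA and read as single reads from a stranded kit. Per the submitters' processing notes, the aligner was Novoalign 2.08.01, the build hg19 and the test DESeq2 1.4.5. The sources used here give neither the read counter nor the annotation.

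The authors deposited 4 tables of raw read counts per gene, each on 1 comparison of groups, per the file headers. The authors also deposited FPKM, from which, with the counts, the length of each gene was derived, to within 0.298% between tables for the members. The log2 fold changes and adjusted p-values that the authors deposited were used only where named as theirs.

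Joined by gene identifier, tables that held the same library had equal counts (132880 of 132880), and 16608 of 17849 genes had counts in all 8 libraries. The filterByExpr function of edgeR 4.0.16 (R 4.3.3) removed 288 and left 16320. Counts were scaled by TMM and fitted with a robust quasi-likelihood model with 4 group means over all 8 libraries, which left 4 residual degrees of freedom, with a common biological coefficient of variation of 4.57%. Two-sided F-test p-values were adjusted over all genes tested (Benjamini-Hochberg) with a threshold of 0.05. SE is the log2 fold change divided by the root of F. The fit was tested on simulated data. DESeq2 1.42.0 was an alternative. The design text calls the samples of a group independent.

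The members, lists and rules were chosen with earlier results of these data known. The text names all 10 members; of each list up to 3 genes per direction with the largest called change in 1035 against DMSO, and every gene called in doxorubicin against DMSO, in the combination against 1035 or in the interaction; and the 3 genes nearest in pattern to CHEK1 and to CHEK2. Alternatives were DESeq2, other scalings and filters, the compared groups alone, a replicate block and the omission of single libraries. The closing section gives their effect. A further pathway list is not reported here.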

Additional observations from a re-analysis of the deposited data

How the results depend on the processing

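The member results were refitted with DESeq2, with DESeq2 size factors in edgeR, with no filter, with a filter at a mean normalised count of 50, with the compared groups alone, with a replicate block and without single libraries. Of 890 values of single members, 879 kept their call, among them 37 that changed sign with no call in either setting, 6 lost it, 5 gained it, and 0 reversed. All 11 that changed came with libraries left out, and concerned MDC1, ATRIP and ATR as given above. Members called ranged, with 1 library left out, between 7 and 8 in 1035 against DMSO, 5 and 8 in the combination against doxorubicin, 7 and 8 in the combination against DMSO, and 0 and 1 in doxorubicin against DMSO, where the 1 was MDC1 without doxorubicin replicate 1. They stayed at 0 in the combination against 1035 and in the interaction.

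Counts over all genes moved more. With 1 library left out, they ranged between 33 and 1180 in doxorubicin against DMSO (main value 217), 30 and 143 in the combination against 1035 (main value 81), and 1 and 239 in the interaction (main value 3), and the highest of each came without doxorubicin replicate 1, shared in the combination against 1035 with the fit without doxorubicin replicate 2. With the compared groups alone they were 134 and 151 in doxorubicin against DMSO and in the combination against 1035. Without 1035 replicate 2 and doxorubicin replicate 2 together, 6 genes were called in the interaction. The cause was not tested. With a replicate block the interaction had 16 calls and the members' calls were 8, 6 and 8 in the 3 comparisons of 1035 and 0 in the others. Replicate differences of pairs of groups correlated between -0.09 and 0.08 across genes. No strong replicate effect shared by the groups was thus seen. Weak correlations cannot exclude that samples of the same number were handled together, so pairing remains unknown. With 2 libraries a group, SEs of members in the comparisons of groups were 0.06 to 0.09 on the log2 scale, which limits what could be called.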
